A study of Mus musculus with 24 samples.

Results

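Genes of WNT ligands and of the R-spondin RSPO3 were followed through 10 RNA-seq libraries of mouse cells: Wnt3, Wnt3a, Wnt4, Wnt5a, Wnt5b, Wnt6, Wnt7b, Wnt8a, Wnt11 and Rspo3. The 10 genes were taken by name from a table of 53379 genes. Each symbol matched 1 gene ID of GENCODE M21, and all 10 genes were among the 19470 that passed the filter on low counts. All libraries came from E14Tg2a.IV mouse embryonic stem cells. WT cells were sampled undifferentiated at day 0. Day 4 samples were embryoid bodies, cell aggregates grown in medium without LIF, the factor that keeps stem cells undifferentiated. They were made from WT cells and from cells with the genotypes Smad2-/-, Smad3-/- and Smad2/3DKO (Smad2 knockout, Smad3 knockout and double knockout below). Each group held 2 libraries, so every mean ± SD below has n = 2. The labels name no separate cultures, and the deposited names give both libraries of a knockout the same line number. The p-values therefore cover the spread between these libraries, which may be technical, and a knockout cannot be told apart from the line that carries it.

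WNT proteins are secreted, lipid-modified signals that bind Frizzled receptors together with the co-receptors LRP5 and LRP6. In the canonical branch this stabilises beta-catenin, which enters the nucleus and acts with TCF and LEF factors. WNT5A, WNT5B and WNT11 are better known for branches that do not use beta-catenin and that steer cell movement. R-spondins bind LGR receptors, draw the ligases ZNRF3 and RNF43 from the cell surface and so leave more Frizzled there. In the mouse embryo WNT3 is needed to form the primitive streak, where mesoderm and endoderm arise, and Nodal signals carried by SMAD2 and SMAD3 act in the same region. WNT7B is known for its part in joining chorion and allantois in the placenta.

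The libraries held 35733249 to 53672980 expected counts, RSEM's estimates of reads per gene. Levels are given as CPM, read counts scaled to a common library size by TMM, and a log2 difference is the fitted log2 ratio of 2 groups. For Smad2, WT at day 4 had 44.1 ± 8.2 CPM, against 19.8 ± 0.8 for the Smad2 knockout, 38.8 ± 0.71 for the Smad3 knockout and 22.4 ± 0.34 for the double knockout. For Smad3, WT at day 4 had 43.4 ± 2 CPM, against 30.9 ± 0.15 for the Smad2 knockout and 26.8 ± 1.6 for the double knockout. In the libraries labelled Smad3 knockout Smad3 stood at 49.2 ± 0.68 CPM and so did not check that label, and the names below are those of the labels. The 2 Smad2 knockout libraries stood apart in streak genes: T, which encodes the streak regulator Brachyury, had 74.3 CPM in replicate 1 and 0.79 in replicate 2. Summed over 10 naive pluripotency markers, the level was 2360 to 2490 CPM at day 0 and 519 to 521 in WT at day 4. Longer genes were higher in WT at day 4 than at day 0 (Spearman correlation of log2 difference with length across 13987 genes 0.571), and lower in the Smad2 knockout than in WT (-0.621). The correlation was -0.042 for the Smad3 and 0.044 for the double knockout. The effect of a length and GC offset is given below for some of the results it changed, and other counts moved under it too.

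Promoter sequences are shown for 4 of the genes, because the study is about SMAD factors and these 4 include genes that moved in opposite directions in the double knockout. Promoters of 6 of the 10 genes were taken from the RefSeq promoter table (GRCm38.p6), 9 in all. Wnt5a, Wnt7b, Wnt8a and Rspo3 have no sequence here, and Wnt8a was left out of the search. The stretch upstream of the annotated start is printed 5′ to 3′ on the strand of the gene, in lower case. Capitals mark a match to 1 of 6 short motifs searched on both strands. The SMAD motif was GTCTG, which reads CAGAC on the opposite strand. The FOXH1 motif was ATCCACA. A variant of it, ATACACA, was searched too. The TCF/LEF motif was CTTTGAT, which reads ATCAAAG on the opposite strand. The second TCF/LEF motif was CTTTGAA. The T-box motif was TCACACC.
Wnt3, chr11:103773925-103774149, plus strand, where a SMAD motif lies: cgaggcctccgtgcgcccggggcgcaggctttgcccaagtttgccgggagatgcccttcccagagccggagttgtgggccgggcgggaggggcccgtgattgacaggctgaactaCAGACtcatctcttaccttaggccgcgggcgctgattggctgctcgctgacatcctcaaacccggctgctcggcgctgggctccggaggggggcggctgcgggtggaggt
Wnt5b, chr6:119544348-119544597, minus strand, where a SMAD motif lies: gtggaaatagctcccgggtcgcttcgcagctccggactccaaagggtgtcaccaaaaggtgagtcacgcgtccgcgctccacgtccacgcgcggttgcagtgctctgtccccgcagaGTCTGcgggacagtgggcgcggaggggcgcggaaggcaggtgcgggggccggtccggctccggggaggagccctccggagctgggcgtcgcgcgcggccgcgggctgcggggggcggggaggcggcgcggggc
Wnt11, chr7:98834862-98835111, plus strand, where a TCF/LEF motif lies: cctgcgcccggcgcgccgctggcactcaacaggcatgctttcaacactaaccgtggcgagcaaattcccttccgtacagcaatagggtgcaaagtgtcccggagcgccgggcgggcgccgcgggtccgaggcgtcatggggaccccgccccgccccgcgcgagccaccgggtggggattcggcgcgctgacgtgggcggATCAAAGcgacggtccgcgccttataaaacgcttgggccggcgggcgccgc
Wnt6, chr1:74771642-74771891, plus strand, where no motif lies: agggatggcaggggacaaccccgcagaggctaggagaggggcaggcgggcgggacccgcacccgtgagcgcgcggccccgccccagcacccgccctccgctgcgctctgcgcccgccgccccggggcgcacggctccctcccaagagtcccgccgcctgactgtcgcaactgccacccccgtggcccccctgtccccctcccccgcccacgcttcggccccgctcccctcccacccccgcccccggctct
The SMAD letters are common: 49.6% of the 32851 promoters in the table hold them within the same 300 bases. The TCF/LEF letters CTTTGAT are in 3.7% of promoters and the FOXH1 letters ATCCACA in 3.4%. A second Wnt5b promoter held the FOXH1 letters at position -105 from its start, counted in bases upstream, and the third held CTTTGAT at -71 and the SMAD letters at -14. The second Wnt11 promoter held the SMAD letters at -114. None of the 6 motifs was found in the windows of Wnt3a, Wnt4 and Wnt6, which says only that these letters are not in these 300 bases. These matches are descriptions of letters and show no binding.

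WT cells were compared between day 0 and day 4 to see which ligands come up as embryoid bodies form. Of the 10 genes, 4 rose and 2 fell (edgeR's quasi-likelihood test, Benjamini-Hochberg adjusted p under 0.05 over all 19470 genes). The background was high: 28.9% of all genes were called higher and 23.2% lower in this comparison, 52.1% in all. The genes that rose were Wnt8a, Rspo3, Wnt3 and Wnt11, all low or near 0 at day 0. Wnt6 and Wnt7b fell. The median log2 difference was 1.83 over the 10 genes and 0.10 over all genes tested. The groups did not overlap for 9 of the 10 genes, 7 higher and 2 lower, where 40.6% of all genes were separated upward and 35.7% downward.

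Wnt8a, a streak ligand of the canonical branch (chromosome 18, 34542313 to 34548273, mm10), had 0.239 and 0.184 CPM in the day 0 libraries and 21.2 and 33.1 CPM at day 4. Both day 4 libraries were far above both day 0 libraries, and the log2 difference was 6.99 (SE 0.99, adjusted p = 0.000531). Wnt3 (chromosome 11, 103774150 to 103817957) had 0.239 and 0.711 CPM at day 0 and 9.38 and 15.6 at day 4, for a log2 difference of 4.69 (SE 1.01, adjusted p = 0.00417). Rspo3, which strengthens WNT signals at the receptor (chromosome 10, 29452416 to 29535867), had 0.0896 and 0.105 CPM at day 0, only 7 counts over both libraries. At day 4 it had 8.25 and 5.99 CPM, for a log2 difference of 6.14 (SE 1.55, adjusted p = 0.00901). With so few counts at day 0 the size of that rise is loosely fixed, and the call was lost without either day 0 library (adjusted p up to 0.0681). Wnt11 (chromosome 7, 98835112 to 98855195) rose from 0.598 and 0.553 CPM to 1.97 and 4.87, for a log2 difference of 2.57 (SE 0.53, adjusted p = 0.00349).

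Wnt7b (chromosome 15, 85535437 to 85582473) led the 10 genes at day 0 by TPM (mean 1.38). It had 5.47 and 5.56 CPM at day 0 and fell to 1.92 and 2.40 CPM, for a log2 difference of -1.35 (SE 0.24, adjusted p = 0.00148). Wnt6 (chromosome 1, 74771892 to 74785322) fell from 1.26 and 1.11 CPM to 0.0686 and 0.38, for a log2 difference of -2.39 (SE 0.72, adjusted p = 0.0198). Neither fall was called on the log2(TPM + 1) scale, on which TPM is the level that the authors corrected for transcript length. There the Wnt7b difference was -0.28 and the median over all genes was 0.73 higher than in the count fit. Wnt6 lost its call also without either day 0 library and without WT day 4 replicate 1. Wnt5b (chromosome 6, 119432531 to 119544347) had 1.34 CPM in both day 0 libraries and 3.96 and 6.85 at day 4. It missed the threshold (log2 difference 2.00, adjusted p = 0.0518) and was called under 10 of 21 alternatives. Wnt3a (chromosome 11, 59248033 to 59290752) stayed under 1 CPM in all 4 libraries (log2 difference 1.65, adjusted p = 0.276). The values were 0.79 (adjusted p = 0.251) for Wnt5a (chromosome 14, 28504750 to 28527448) and 0.22 (adjusted p = 0.728) for Wnt4 (chromosome 4, 137277489 to 137299726), and both had the other sign with the length and GC offset. An exon of Wnt5a overlaps Gm2670 on the other strand, and one of Wnt7b overlaps AU022754. These antisense genes had 16 and 21 counts over all libraries, and nothing used here says if counting was by strand.

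**Figure D1:**
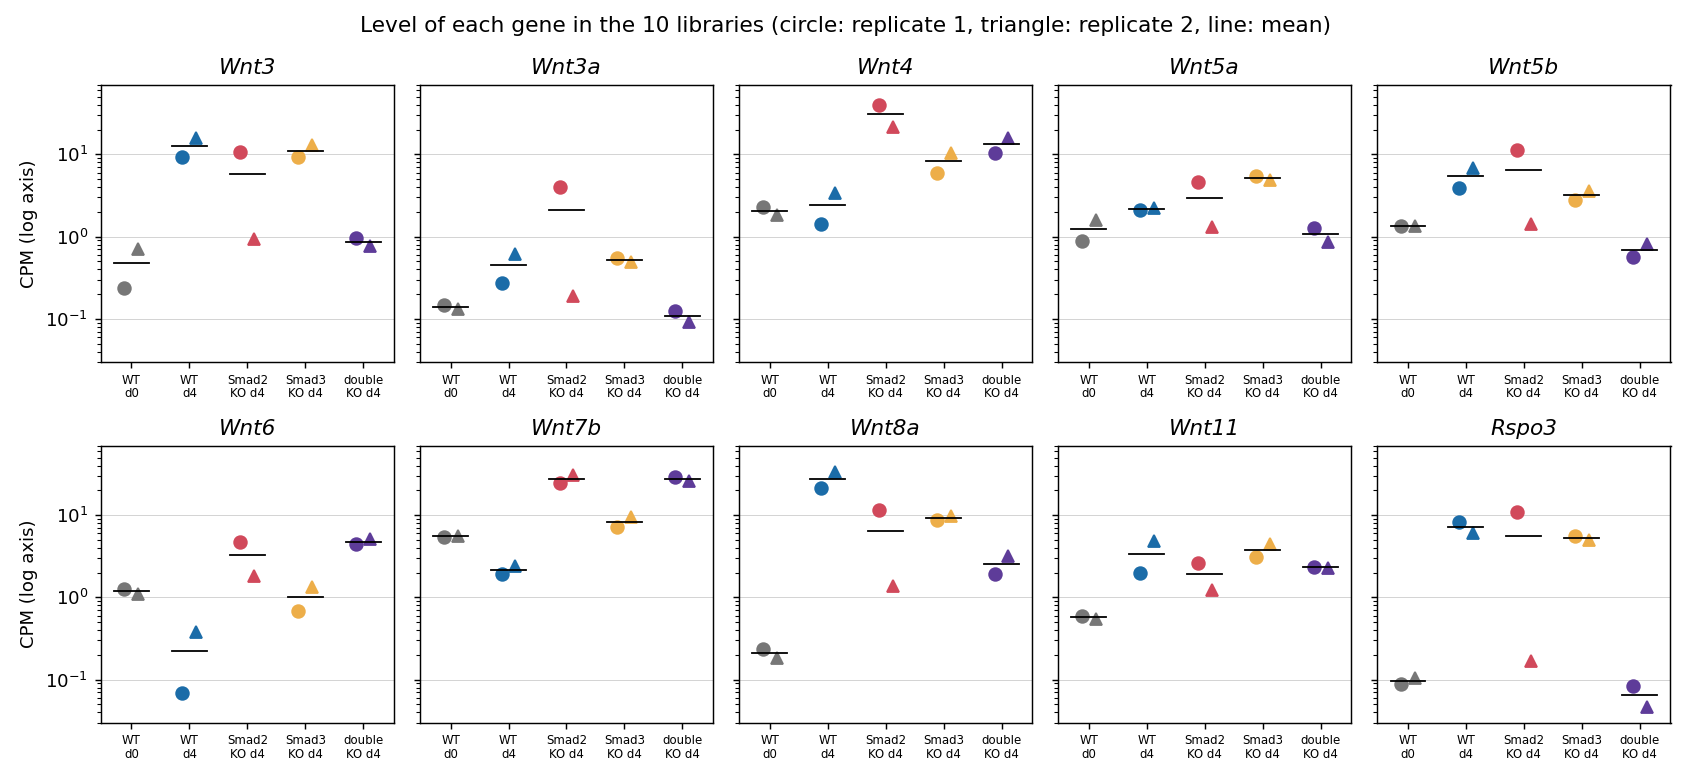
CPM of each of the 10 genes (log axis) in the 5 groups, with circles for replicate 1, triangles for replicate 2 and lines for group means; d0 and d4 are days 0 and 4. Wnt8a, Wnt3 and Rspo3 rise by day 4 in WT cells and are low in both double knockout libraries, Wnt4, Wnt6 and Wnt7b are high in the Smad2 and double knockouts, and the 2 Smad2 knockout libraries lie far apart for Wnt3, Wnt3a, Wnt5b, Wnt8a and Rspo3.

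The Smad2 knockout was set against WT at day 4. Wnt4, Wnt6 and Wnt7b were higher in it by 12.7- to 14.5-fold, and none of the 10 genes was called lower. Thus 3 of 10 were called, all higher, where 15.4% of all genes were called higher, 20.1% lower and 35.5% in all. All 3 calls held under every alternative that tested the gene. On log2(TPM + 1) limma also called 2 genes lower, Wnt3 (-1.57, adjusted p = 0.0252) and Wnt8a (-2.77, adjusted p = 0.00411). With the length and GC offset 2 were called lower as well. The median log2 difference of the 10 genes was 0.34, against -0.01 over all genes.

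Wnt7b had 24.3 and 30.4 CPM in the Smad2 knockout against 1.92 and 2.40 in WT, for a log2 difference of 3.66 (SE 0.25, adjusted p = 0.00017). It was the only 1 of the 10 genes with closely matched Smad2 knockout libraries, at a ratio of 0.8 between replicate 1 and replicate 2. Wnt4, known from kidney and gonad development, had 40.0 and 21.6 CPM against 1.44 and 3.38, for a log2 difference of 3.68 (SE 0.51, adjusted p = 0.00147). Wnt6, known from surface ectoderm and from the earliest endoderm, had 4.74 and 1.84 CPM against 0.0686 and 0.38, for a log2 difference of 3.86 (SE 0.72, adjusted p = 0.00442). The lower Smad2 knockout library was above the higher WT library for each of these 3 genes.

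Markers of other cell types differed between the same libraries. Summed over 14 trophoblast markers, WT at day 4 had 454 to 637 CPM, the Smad2 knockout 2060 to 3030, the Smad3 knockout 762 to 944 and the double knockout 2520 to 3100. Of these markers 12 were called higher and 1 lower after Smad2 loss, and 12 higher and 1 lower after loss of both genes, where 15.4% and 10.8% of all genes were called higher, and Prl3d1 of giant cells was at 0 counts in WT and Smad3 knockout libraries. For 11 surface ectoderm markers, which share Krt8, Krt18 and Gata3 with the trophoblast list, WT had 252 to 432 CPM, the Smad2 knockout 1840 to 2650, the Smad3 knockout 660 to 828 and the double knockout 2000 to 2440. Extraembryonic endoderm markers went the other way. Summed over 12 of them, WT at day 4 had 953 to 1040 CPM, the Smad2 knockout 72.8 to 75.9, the Smad3 knockout 579 to 582 and the double knockout 306 to 383. In these knockouts 12, 1 and 8 were called lower and 0 higher, where 20.1%, 0.123% and 12.3% of all genes were called lower. The sum of 10 neuroectoderm markers was 123 to 135 CPM in WT, 44.4 to 46.3 in the Smad2 knockout and 21.5 to 30.4 in the double knockout, where 1 of the 9 tested was called lower in each and 1 and 2 higher. For 10 naive pluripotency markers the sum was 519 to 521 CPM in WT at day 4. It was 518 to 867 in the Smad2 knockout, 286 to 289 in the Smad3 knockout and 577 to 728 in the double knockout. In these knockouts 4, 0 and 4 of them were called higher and 0, 1 and 1 lower. The part of these cell types in the values of Wnt4, Wnt6 and Wnt7b was not tested. In bulk RNA, fewer cells of a type and less RNA per cell cannot be told apart.

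The other 7 genes were not called, and for 5 of them the 2 Smad2 knockout libraries lay more than 8-fold apart. Rspo3 had 11 CPM in replicate 1 and 0.171 in replicate 2, against 8.25 and 5.99 in WT. Wnt3 had 10.6 and 0.939 CPM, Wnt8a 11.6 and 1.39, and Wnt5b 11.4 and 1.41. Wnt3a, close kin of Wnt3 and a ligand of the streak and tail bud, had 4.05 and 0.192 CPM against 0.274 and 0.618 in WT. The means over such pairs describe neither library. Without replicate 1 the log2 difference of Rspo3 went from -0.36 (adjusted p = 0.819) to -5.36 (adjusted p = 0.00197), and that of Wnt5b from 0.24 (adjusted p = 0.819) to -1.94 (adjusted p = 0.024). In that fit 7 of the 10 genes were called, with Wnt4, Wnt6 and Wnt7b higher and Wnt3, Wnt5b, Wnt8a and Rspo3 lower, and the lone library was assumed to vary like the others. Wnt8a was the nearest to the threshold with both libraries (log2 difference -2.07, SE 0.73, adjusted p = 0.0525) and was called lower under 7 of 21 alternatives. Wnt5a had 4.63 and 1.30 CPM (log2 difference 0.45, adjusted p = 0.535). Wnt11 had 2.62 and 1.22 CPM against 1.97 and 4.87 in WT (-0.84, adjusted p = 0.201).

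The gap between the Smad2 knockout libraries was wide across these genes. In replicate 1, 8 of the 10 genes stood more than 2-fold higher than in replicate 2, where 6% of all genes did. The ratio was 64.5 for Rspo3, 21.1 for Wnt3a, 11.3 for Wnt3, 8.38 for Wnt8a, 8.07 for Wnt5b and 3.56 for Wnt5a. In the other 4 groups 0 of the 10 exceeded replicate 2 by more than 2-fold. The reverse held for 4 of them in WT at day 4 and for 1, Wnt3, at day 0. The share of all genes in that direction was not counted. Summed over 10 streak and mesoderm markers, the level was 266 CPM in Smad2 knockout replicate 1 and 57.8 in replicate 2, against 386 to 448 in WT at day 4. Of those 57.8 CPM in replicate 2, Hand1 held 39.8, and Hand1 is also on the trophoblast list. The part of the streak markers in the gap was not tested. The deposited names place replicate 1 and replicate 2 of this knockout in different name series, as they do for WT and the Smad3 knockout.

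**Figure D2:**
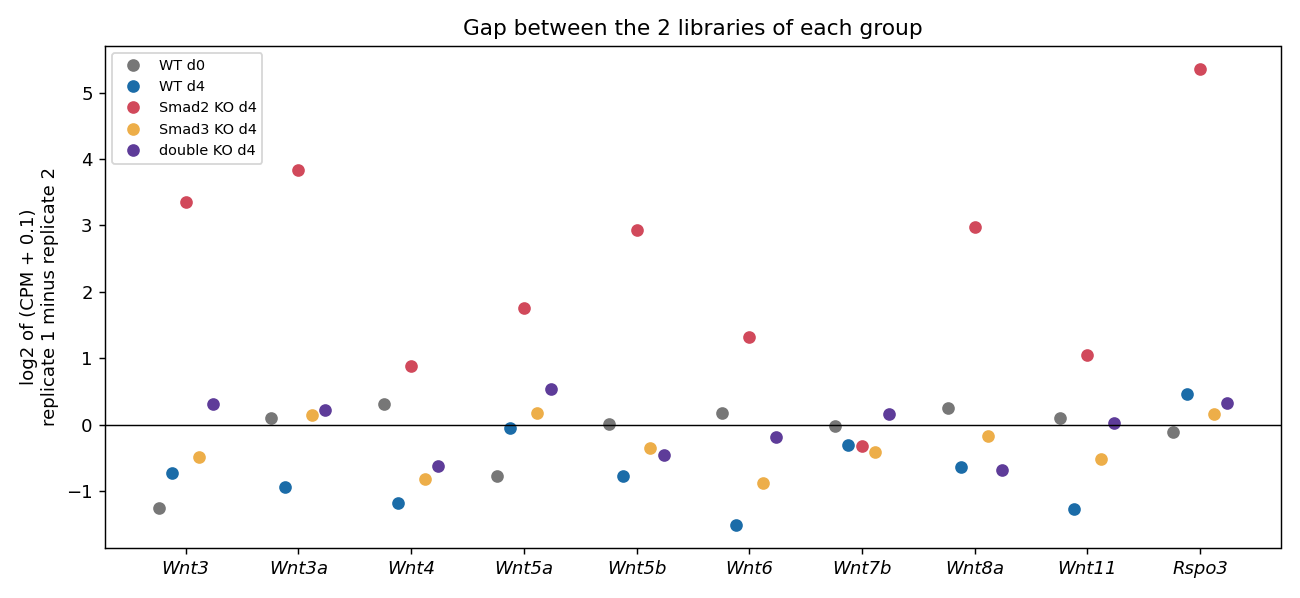
Difference between replicate 1 and replicate 2 in log2(CPM + 0.1) for each of the 10 genes, 1 point per group; points above 0 are higher in replicate 1. The Smad2 knockout points reach 5.36 for Rspo3, while those of the other 4 groups lie between -1.51 and 0.53.

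The Smad3 knockout moved few genes in all: 0.431% of all genes were called higher, 0.123% lower and 0.555% in all. Of the 10 genes Wnt7b was called higher and none lower. It had 7.08 and 9.5 CPM against 1.92 and 2.40 in WT, for a log2 difference of 1.94 (SE 0.24, adjusted p = 0.0174). That call was lost with the compared groups alone, and without either Smad3 knockout or either double knockout library (adjusted p up to 0.21), while the value stayed between 1.31 and 2.13. Wnt4 had 5.91 and 10.5 CPM, above both WT libraries, with a log2 difference of 1.77 (SE 0.48, adjusted p = 0.125). Wnt6 had 0.688 and 1.36 CPM, also above both, with 2.18 (SE 0.71, adjusted p = 0.176). Wnt5a had 5.51 and 4.86 CPM against 2.13 and 2.21 (1.26, adjusted p = 0.269). None of these 3 differences was called.

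The streak ligands were not called in the Smad3 knockout. Wnt3 had 9.22 and 13 CPM, overlapping WT at 9.38 and 15.6 (log2 difference -0.17, SE 0.81, adjusted p = 0.944). Rspo3 had 5.62 and 5.03 CPM, just under both WT libraries (-0.42, SE 1.08, adjusted p = 0.884). Wnt8a had 8.68 and 9.85 CPM, under both WT libraries at 21.2 and 33.1, and was not called either (-1.55, SE 0.72, adjusted p = 0.308). Wnt5b had 2.80 and 3.60 CPM (-0.76, adjusted p = 0.638), Wnt11 3.11 and 4.49 (0.15, adjusted p = 0.909) and Wnt3a 0.555 and 0.494 (0.24, adjusted p = 0.937). With standard errors of this size, a missed threshold does not show that Wnt3 and Rspo3 were at the WT level. The sum of the streak markers was 209 to 250 CPM.

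In the double knockout the 10 genes split. Wnt4, Wnt6 and Wnt7b were higher than in WT, and Wnt3, Wnt5b, Wnt8a and Rspo3 were lower. Thus 7 of 10 were called, 3 higher and 4 lower, where 10.8% of all genes were called higher, 12.3% lower and 23.1% in all. The median log2 difference was -1.51 over the 10 genes and -0.05 over all genes. No overlap between the groups was seen for 9 of the 10 genes, 3 higher and 6 lower, where 28.7% and 31% of all genes were so separated.

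Rspo3 had 0.0831 and 0.0464 CPM in the double knockout, 6 counts over both libraries, against 8.25 and 5.99 CPM in WT. The log2 difference was -6.70 (SE 1.58, adjusted p = 0.0146), and against day 0 the gene was not called (-0.56, SE 2.13, adjusted p = 0.84). Wnt3 had 0.976 and 0.766 CPM against 9.38 and 15.6, for a log2 difference of -3.84 (SE 0.94, adjusted p = 0.017). Wnt8a had 1.93 and 3.18 CPM against 21.2 and 33.1, for a log2 difference of -3.41 (SE 0.78, adjusted p = 0.0125), and was still above both day 0 libraries (3.58, adjusted p = 0.0106). Wnt5b had 0.561 and 0.812 CPM against 3.96 and 6.85, for a log2 difference of -2.97 (SE 0.80, adjusted p = 0.0258). All 4 calls were lost without either double knockout library, with adjusted p from 0.109 to 0.165 at the highest. Wnt5b lost its call also on both TPM scales and without WT day 4 replicate 2. The streak markers summed to 70.3 and 70.4 CPM, of which Hand1 held 60.6 and 62.7, and T had 0.249 and 0.325 CPM. Their part in the fall of these ligands was not tested.

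Wnt7b had 28.9 and 26.0 CPM in the double knockout, a log2 difference from WT of 3.67 (SE 0.25, adjusted p = 3.5e-05). Wnt6 had 4.46 and 5.08 CPM (4.40, SE 0.72, adjusted p = 0.00257) and Wnt4 had 10.4 and 16.1 CPM (2.46, SE 0.49, adjusted p = 0.00639). These 3 calls held under every alternative that tested the gene. The other 3 genes were not called. Wnt3a had 0.125 and 0.0928 CPM (-2.0, adjusted p = 0.272), Wnt5a 1.29 and 0.858 (-1.01, adjusted p = 0.221) and Wnt11 2.35 and 2.30 (-0.56, adjusted p = 0.447). Both Wnt11 values lay between the 2 WT libraries.

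**Figure D3:**
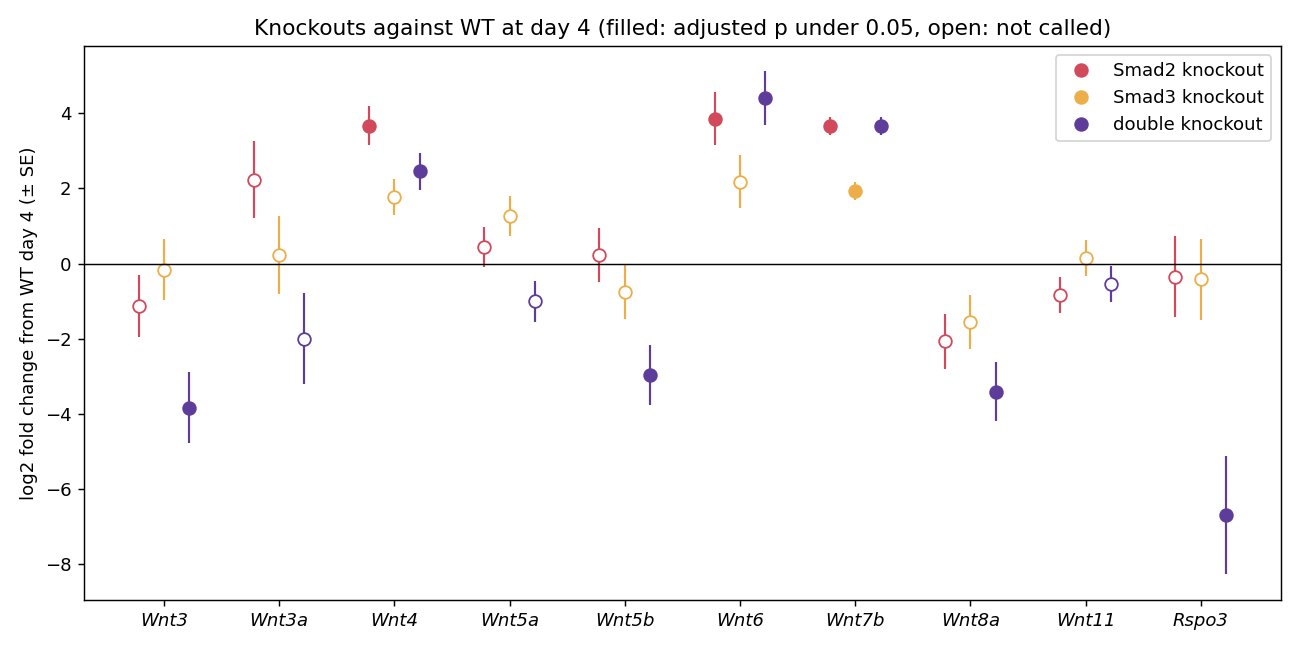
Log2 fold change of each of the 10 genes from WT at day 4, with its standard error, for the Smad2 (red), Smad3 (yellow) and double knockout (purple); filled points passed an adjusted p of 0.05. Wnt4, Wnt6 and Wnt7b lie above 0 in all 3 knockouts, and Rspo3 reaches -6.70 in the double knockout. The 3 knockouts share the same 2 WT libraries.

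The knockouts were also compared directly. Between the Smad2 and the Smad3 knockout 2 of the 10 genes were called, both higher in the Smad2 knockout, where 15.7% of all genes were called higher, 17.9% lower and 33.6% in all. They were Wnt7b (log2 difference 1.72, SE 0.23, adjusted p = 0.0018) and Wnt4 (1.91, SE 0.47, adjusted p = 0.0141). The Wnt4 call was lost on the TPM scales and without Smad2 knockout replicate 1 or Smad3 knockout replicate 1. Wnt6, at 4.74 and 1.84 against 0.688 and 1.36 CPM, was not called (1.68, adjusted p = 0.0627). The direction of the calls moved with the scale. On log2(TPM + 1) limma called 1 gene higher, Wnt7b (0.79, adjusted p = 0.00927). It called 2 lower there, Wnt3 (-1.52, adjusted p = 0.0292) and Wnt11 (-1.17, adjusted p = 0.0178). With the length and GC offset 2 were called higher and 1 lower.

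Set against the Smad2 knockout, the double knockout had 4 of the 10 genes lower and 0 higher, where 20.5% of all genes were called higher, 19.1% lower and 39.6% in all. They were Rspo3 (log2 difference -6.35, adjusted p = 0.0123), Wnt3a (-4.23, adjusted p = 0.0201), Wnt5b (-3.21, adjusted p = 0.013) and Wnt3 (-2.71, adjusted p = 0.0403). All 4 calls were lost without Smad2 knockout replicate 1, when 0 of the 10 genes were called (1 at an unadjusted p under 0.05), and without either double knockout library. Rspo3, Wnt5b and Wnt3 lost theirs also on both TPM scales, where Wnt3a was not tested. The split turned there: on log2(TPM + 1) 2 of 8 genes were called, Wnt7b and Wnt6 (1.06, adjusted p = 0.0209), both higher, and on log2(TPM + 0.1) 1 was, also higher. The Wnt3 call was the least firm and was lost under 10 of 21 alternatives, among them library totals, the compared groups alone and the replicate block (-2.65, adjusted p = 0.0537). For Wnt3, Smad2 knockout replicate 2 (0.939 CPM) lay between the double knockout libraries (0.976 and 0.766), so the difference rests on replicate 1. Wnt7b had the same mean of 27.4 CPM in both knockouts (log2 difference 0.003, SE 0.22, adjusted p = 0.993). In TPM, however, Wnt7b had 7.37 ± 0.54 with Smad2 lost and 13.9 ± 0.88 with both lost, a difference of 0.83 in log2(TPM + 1) (limma, adjusted p = 0.00595). The median of all genes shifted by 0.84 between the same scales, about the size of the Wnt7b difference.

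Set against the Smad3 knockout, the double knockout had 2 of the 10 genes higher and 3 lower, where 7.53% of all genes were called higher, 8.01% lower and 15.5% in all. Wnt7b (log2 difference 1.73, SE 0.23, adjusted p = 0.00138) and Wnt6 (2.22, SE 0.63, adjusted p = 0.0411) were higher. Rspo3 (-6.28, SE 1.57, adjusted p = 0.0258), Wnt3 (-3.67, SE 0.93, adjusted p = 0.0275) and Wnt5a (-2.27, SE 0.56, adjusted p = 0.0238) were lower. The Wnt7b call held under every alternative. The other 4 were lost without either Smad3 knockout and without either double knockout library. Wnt6 lost its call also without either day 0 library and on log2(TPM + 0.1), and Rspo3 on log2(TPM + 1).

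The interaction asked if Smad2 loss acted differently with and without Smad3. It is the difference of double and Smad3 knockout minus that of Smad2 knockout and WT. Of the 10 genes 3 were called, all below 0, where 11.3% of all genes were called above 0, 7.52% below and 18.9% in all. Wnt7b gave -1.94 (SE 0.32, adjusted p = 0.00772): Smad2 loss went with a log2 difference of 3.66 from WT and of 1.73 from the Smad3 knockout, and ended at the same mean CPM. Wnt4 gave -2.99 (SE 0.66, adjusted p = 0.0179), with 3.68 from WT and 0.69 from the Smad3 knockout. Wnt5a, with 0.45 from WT and -2.27 from the Smad3 knockout, gave -2.71 (SE 0.77, adjusted p = 0.0387), a call that 8 of the 10 left-out libraries ended. Wnt7b stood at -0.48 on the log2(TPM + 1) scale (adjusted p = 0.192). The Wnt4 call was lost without Smad2 knockout replicate 1, Smad3 knockout replicate 2 or either double knockout library. On that scale none of the 8 genes tested was called by limma (1 at an unadjusted p under 0.05), and without Smad3 knockout replicate 2 none was by edgeR (5 at an unadjusted p under 0.05). Rspo3 (-5.93, SE 1.92, adjusted p = 0.058) and Wnt3a (-4.47, adjusted p = 0.0735) were not called.

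Levels of different genes were compared in TPM, which corrects for length. The summed level of the 10 genes was 3.22 and 4.17 TPM in the day 0 libraries, 35.8 and 51.6 in WT at day 4, 41.1 and 15.4 in the Smad2 knockout, 30.4 and 36.9 in the Smad3 knockout and 28.4 and 31.3 in the double knockout. All day 4 libraries were above both day 0 libraries. The gene that led the sum was not the same in all groups. In WT at day 4 Wnt8a held 55.5% and 56.5% of it, Wnt3 13.3% and 14.3%, and Wnt7b 2.48% and 1.98%. Wnt7b led in the double knockout and held 51.1% and 42.3%, Wnt4 14.6% and 20.8%, Wnt6 13.5% and 14%, and Wnt8a 6.95% and 10.6%. In the Smad3 knockout Wnt8a still led with 27.9% and 25.3%, followed by Wnt3 with 16.1% and 17.9%. The Smad2 knockout libraries differed: Wnt4 led replicate 1 with 22.2% and Wnt7b led replicate 2 with 50.4%. At day 0 Wnt7b held 37.6% and 37.2%. Shares add up to a fixed total, so a rise in 1 gene lowers the others.

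**Figure D4:**
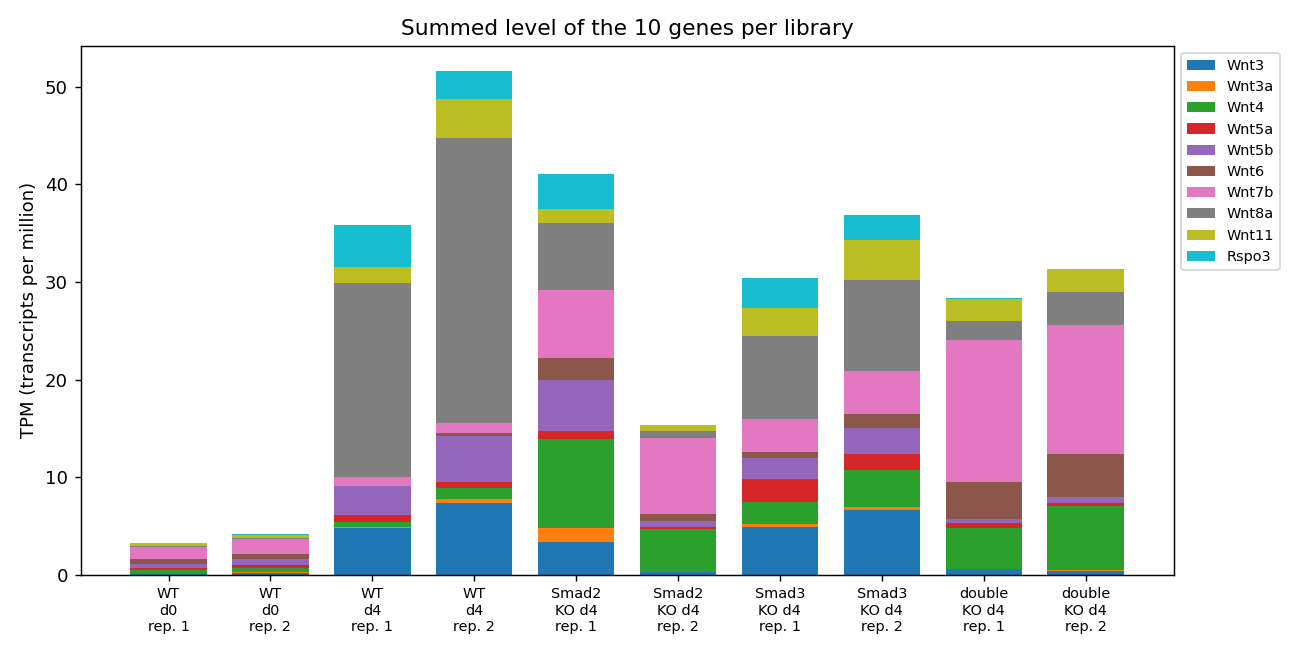
Stacked TPM of the 10 genes in each library, 1 bar per library, with 1 colour per gene. The WT day 4 bars are mostly Wnt8a, the double knockout bars mostly Wnt7b, Wnt4 and Wnt6, and the bar of Smad2 knockout replicate 2 reaches 15.4 TPM where that of replicate 1 reaches 41.1.

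The order of levels over the 5 groups differed between genes. By mean CPM, WT at day 4 came first for Wnt3, Wnt8a and Rspo3, the Smad2 knockout for Wnt3a, Wnt4 and Wnt5b, the Smad3 knockout for Wnt5a and Wnt11, and the double knockout for Wnt6. For Wnt7b the double and Smad2 knockouts tied at the top. Most neighbours in these orders did not differ by the test. For Wnt3 the steps from WT (12.5 ± 4.4 CPM) to the Smad3 knockout (11.1 ± 2.7) and on to the Smad2 knockout (5.75 ± 6.8) had adjusted p = 0.944 and 0.393, and the step from there to the double knockout (0.871 ± 0.15) had 0.0403. For Rspo3 only the step from the Smad3 knockout (5.33 ± 0.41) to day 0 (0.0975 ± 0.011) passed, with adjusted p = 0.0118. For Wnt8a the only step that passed was the last, from the double knockout (2.55 ± 0.88) to day 0 (0.212 ± 0.039), with adjusted p = 0.0106. For Wnt7b 2 steps passed: from the Smad2 knockout (27.4 ± 4.3) to the Smad3 knockout (8.29 ± 1.7), with adjusted p = 0.0018, and from day 0 (5.51 ± 0.062) to WT at day 4 (2.16 ± 0.34), with 0.00148. For Wnt11 the step from the Smad2 knockout (1.92 ± 0.99) to day 0 (0.575 ± 0.032) passed with adjusted p = 0.0444. No neighbouring step passed for Wnt3a, Wnt4, Wnt5a, Wnt5b and Wnt6.

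Against day 0, the Smad2 knockout had 7 of the 10 genes called higher, the Smad3 knockout 6 and the double knockout 5, and 0 were lower in each. Of all genes, 12.6%, 29.7% and 29.4% were called higher in these comparisons, 9.27%, 24.7% and 26% lower, and 21.9%, 54.4% and 55.4% in all. In the Smad2 knockout the called genes included Wnt3, Wnt3a, Wnt8a and Rspo3, whose libraries lay far apart. Rspo3 had 416 counts in replicate 1 and 8 in replicate 2, against 3 and 4 at day 0. Wnt3a had 153 and 9, against 5 and 5. In replicate 2 Wnt3 had 0.939 CPM and Wnt8a 1.39, each above both day 0 libraries. None of the alternatives was run on the comparisons of knockouts with day 0. Against day 0, Wnt7b differed by 2.31 with Smad2 lost (adjusted p = 0.000361), by 0.59 with Smad3 lost (adjusted p = 0.0514) and by 2.32 with both lost (adjusted p = 7.9e-05), each with SE 0.23. Only WT was sampled at day 0, so a line difference at that day cannot be told apart from a change with time. Among the day 4 groups only WT had a mean Wnt7b level below that of the day 0 libraries. Wnt3 and Rspo3 in the double knockout were not called against day 0 (0.85, adjusted p = 0.484, and -0.56, adjusted p = 0.84). These comparisons share the day 0 libraries.

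Across the 10 libraries the genes fell into groups by the likeness of their log2 CPM, given as a description because the 10 points share groups and libraries. Pearson's r was 0.96 between Wnt3 and Rspo3, 0.91 between Wnt3 and Wnt8a, 0.91 between Wnt5b and Rspo3, and 0.90 between Wnt8a and Wnt11. It was 0.91 between Wnt6 and Wnt7b and 0.87 between Wnt4 and Wnt7b. Between Wnt4, Wnt6 or Wnt7b and the other 7 genes it ran from -0.495 (Rspo3 with Wnt6) to 0.41 (Wnt3a with Wnt4). Over 12373 other genes of at least 5 CPM in their highest group, the gene most like Rspo3 was T (r = 0.992), followed by Alox15 (0.989) and Igfbp3 (0.974). Most like Wnt3 were Aplnr, the apelin receptor of early mesoderm (0.983), Evx1, a homeobox gene of the streak (0.978), and Tpbg (0.978). Among those most like Wnt7b were Itga7 (0.981) and Krt7, a keratin of simple epithelia and trophoblast (0.978). For Wnt5b they were Lmo4 (0.957), Fgf8, a streak ligand (0.949), and Fam19a5 (0.948). For Wnt8a they were Nefm (0.982), Fras1 (0.973) and Skida1 (0.973), and for Wnt5a Mesp1, a mesoderm factor (0.916), Endod1 (0.914) and Cxcl10 (0.91). The others were Susd4 (0.988), Rgma (0.962) and Nfatc1 (0.961) for Wnt11, Bsg (0.966), Lsp1 (0.966) and Nbl1 (0.962) for Wnt4, Rnf215 (0.979), Bcl2l1 (0.975) and Nub1 (0.974) for Wnt6, and Tusc2 (0.94), Lysmd2 (0.937) and Sprr2a2 (0.918) for Wnt3a.

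**Figure D5:**
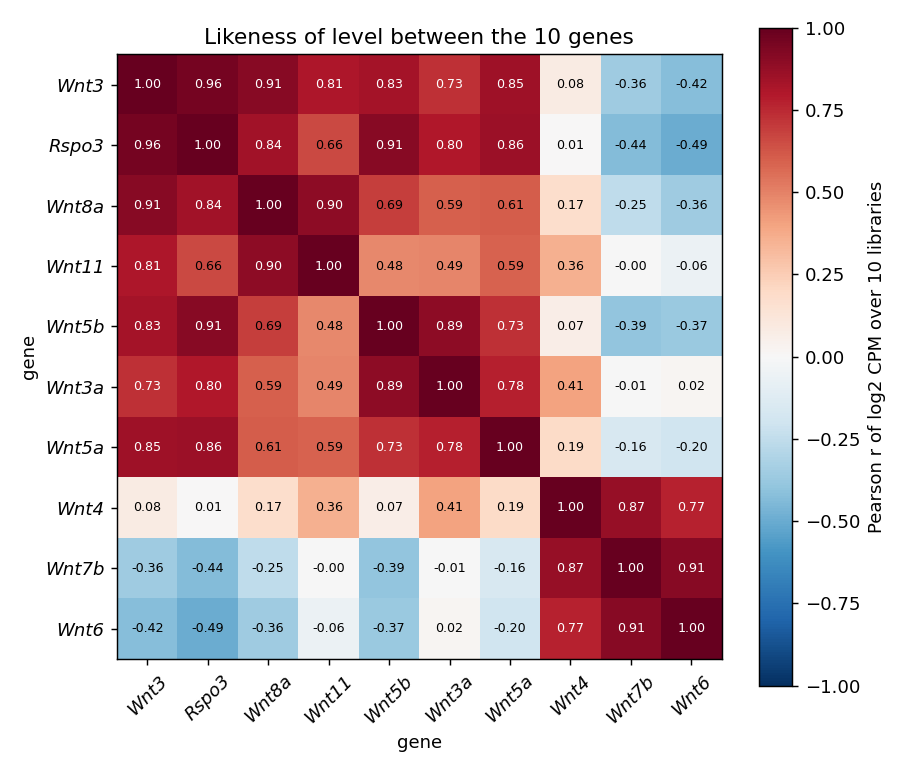
Pearson's r of log2 CPM between each pair of the 10 genes over the 10 libraries, from -1 (blue) to 1 (red). Wnt3, Rspo3, Wnt8a, Wnt11, Wnt5b, Wnt3a and Wnt5a form 1 block with r from 0.48 upward, and Wnt4, Wnt7b and Wnt6 another with r from 0.77 to 0.91.

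The rest of the pathway was read from lists of its parts. Against WT, 15.4% of all genes were called higher and 20.1% lower in the Smad2 knockout. The shares were 0.431% and 0.123% in the Smad3 knockout, and 10.8% and 12.3% in the double knockout. Among 9 other WNT ligands that were tested, 6 rose between day 0 and day 4 in WT and 0 fell, where 28.9% of all genes rose and 23.2% fell. The count was 3 without either day 0 library, and 4 with 1 fall without WT day 4 replicate 2. Wnt9a rose from 1.46 ± 0.21 to 4.76 ± 1.5 CPM (log2 difference 1.70, adjusted p = 0.000928), Wnt2b by 2.70 and Wnt10b by 4.26 on the log2 scale. With the length and GC offset 4 rose and 0 fell. On the TPM scales and with the stricter filter only 1 of these ligands was tested, and it was called. In the Smad2 knockout 2 were higher and 2 lower than in WT, and in the double knockout 3 higher and 1 lower. Wnt9a was higher in the Smad2 (log2 difference 1.18, adjusted p = 0.00798), Smad3 (1.56, adjusted p = 0.0376) and double knockout (1.87, adjusted p = 0.00105), at 10.8, 14 and 17.4 CPM. In the Smad3 knockout 0 of these ligands were called by edgeR with the compared groups alone, and 0 without WT day 4 replicate 1 or without either day 0, either Smad3 knockout or either double knockout library (1 to 4 at an unadjusted p under 0.05). On log2(TPM + 0.1) limma called 0 of the 1 tested there, which had an unadjusted p under 0.05. Wnt7a, a close relative of Wnt7b, was higher in the Smad2 (2.75, adjusted p = 0.00905) and the double knockout (2.61, adjusted p = 0.0142). Wnt2 was at 0 counts in both libraries of each of these 2 knockouts and at 0.137 and 0.143 CPM in WT. Of the other R-spondin genes, Rspo1 rose by 1.53 between day 0 and day 4 and was lower in the double knockout (7.69 to 1.30 CPM, log2 difference -2.56, adjusted p = 0.00261), and Rspo2 was higher in the Smad2 knockout (3.94, adjusted p = 0.0433) at 0.226 CPM, a call that several left-out libraries ended.

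Frizzled genes encode the receptors for these ligands. Of 10 Frizzled genes 7 rose and 1 fell between day 0 and day 4 in WT, where 52.1% of all genes were called, with a median log2 difference of 1.46 against 0.10 over all genes. Fzd7 rose from 58.1 to 219 CPM (log2 difference 1.91, adjusted p = 5.75e-05), Fzd1 by 2.82 and Fzd6 by 3.06, and Fzd9 fell (-2.40, adjusted p = 0.00867). With the length and GC offset 5 rose and 3 fell, and Fzd3 and Fzd4 turned. The Smad2 knockout had 6 Frizzled genes lower than in WT and 0 higher (median -0.91), led by Fzd7 (-1.13, adjusted p = 0.00181), Fzd4 (-1.68, adjusted p = 0.00238) and Fzd6 (-2.22, adjusted p = 0.00463). With the offset that count was 2, and Fzd3 turned. The double knockout had 4 lower and 0 higher (median -0.90), led by Fzd7 (-1.37, adjusted p = 0.000518), Fzd8 (-1.49, adjusted p = 0.00291) and Fzd4 (-1.44, adjusted p = 0.00405). With the offset 7 were lower in the double knockout. Of all genes, 20.1% were called lower in the Smad2 and 12.3% in the double knockout. None of the 10 was called in the Smad3 knockout.

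Of all genes, 28.9% were called higher between day 0 and day 4 in WT. Against WT, 15.4% were called higher and 20.1% lower in the Smad2 knockout, and 10.8% and 12.3% in the double knockout. The R-spondin receptors and their ligases numbered 5. Of these, 4 rose from day 0 to day 4 in WT, with Lgr5 at no more than 0.0263 CPM at day 0 and 3.35 CPM at day 4, Lgr4 rising by 1.00 and Znrf3 by 0.81 on the log2 scale. Lgr4 and Znrf3 turned with the length and GC offset. With Smad2 lost 3 were lower: Lgr4 (94.3 to 36.9 CPM, -1.35, adjusted p = 0.00302), Znrf3 (-1.06, adjusted p = 0.00327) and Lgr5 (-3.24, adjusted p = 0.0122). The same 3 genes were lower in the double knockout (-1.43, -0.61 and -4.14, adjusted p = 0.00221, 0.0385 and 0.00661). Without either double knockout library 1 of the 5 was called there. Of the co-receptors and alternative receptors, 4 of 6 rose between day 0 and day 4 (2 of 6 without day 0 replicate 1 and without WT day 4 replicate 2), led by Ror1 (4.74, adjusted p = 3.67e-05), Lrp6 (1.77, adjusted p = 0.000151) and Ror2 (1.54, adjusted p = 0.0127). Lrp6 (-1.49, adjusted p = 0.0012) and Ror1 (-2.08, adjusted p = 0.0021) were lower in the Smad2 knockout and Ryk was higher (0.46, adjusted p = 0.0431). Ryk had the other sign on the TPM scales. With both genes lost Ror1 alone of the 6 was called (-2.16, adjusted p = 0.00137).

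Other genes process or block WNT proteins. Of 6 genes of WNT acylation, export and deacylation, 3 rose and 1 fell between day 0 and day 4, where 52.1% of all genes were called. Wls, the carrier that takes WNT proteins to the cell surface, rose from 4.5 to 53.8 CPM (log2 difference 3.58, adjusted p = 0.000108), Trabd2b rose by 3.59, and Notum, which removes the lipid of WNT proteins, fell from 15.6 to 1.33 CPM (-3.56, adjusted p = 0.000286). Wls (19.3 CPM, -1.48, adjusted p = 0.0109) and Trabd2b (-1.96, adjusted p = 0.0165) were lower in the double knockout, while in the Smad2 knockout Notum was higher (2.03, adjusted p = 0.00702). The calls of Wls and Trabd2b did not both hold when either double knockout library was left out. Of 10 secreted antagonists tested, 1 was higher and 5 lower in the Smad2 knockout, and 0 were higher and 6 lower in the double knockout (medians -0.81 and -1.67). Of all genes, 15.4% and 20.1% were called higher and lower in the first, and 10.8% and 12.3% in the second. Cer1, which blocks Nodal and WNT ligands, had 23.5 CPM in WT embryoid bodies, 0.0213 CPM with Smad2 lost and 0.022 CPM with both lost. Sfrp1 was lower in both (-1.80, adjusted p = 0.000854, and -2.41, adjusted p = 0.000104), Sfrp5 in the Smad2 knockout (-3.18, adjusted p = 0.00291) and Sfrp2 in the double knockout (-2.71, adjusted p = 0.000872). Dkk2 was at 0 counts in WT and at 0.785 CPM in the Smad2 knockout. In the Smad3 knockout Cer1 was the only antagonist called (2.94 CPM, log2 difference -3.0, adjusted p = 0.0174). That call was lost with the compared groups alone and on log2(TPM + 0.1). It was lost also without either Smad3 knockout or either double knockout library.

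Inside the cell, 9 of 16 genes of beta-catenin control and TCF factors rose between day 0 and day 4 and 0 fell, where 28.9% of all genes rose, led by Apc (1.99), Bcl9 (1.47) and Gsk3b (1.2). With the length and GC offset 6 rose and 1 fell. Without day 0 replicate 1, 5 rose, without day 0 replicate 2, 6 rose, and without WT day 4 replicate 2, 8 rose and 4 fell. In the Smad2 knockout 6 were lower and 0 higher, led by the same 3 genes (-1.88, -1.27 and -1.06), where 20.1% of all genes were called lower. In the double knockout 2 were higher and 3 lower, where 10.8% and 12.3% of all genes were. They were led by Lef1 (32.1 to 4.31 CPM, log2 difference -2.89, adjusted p = 0.000465) and Tcf7 (-1.16, adjusted p = 0.00186), with Dvl3 higher (1.58, adjusted p = 0.0277). The Dvl3 call was lost with the compared groups alone and when either double knockout library was left out. The split moved with 1 library: without WT day 4 replicate 2 it was 6 higher and 5 lower in the Smad2 knockout. Of 20 response genes tested, 13 rose and 1 fell between day 0 and day 4, where 28.9% and 23.2% of all genes did. Axin2, a general feedback target, rose from 4.08 to 37.4 CPM (3.20, adjusted p = 0.000413), Dkk1 rose by 6.95 and Notum fell by 3.56. Without WT day 0 replicate 1 the count of rises was 6.

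In the Smad2 knockout 4 response genes were higher and 6 lower than in WT, where 15.4% and 20.1% of all genes were. Msx2, also a BMP target, was higher (3.03, adjusted p = 0.00142), as were Cdx2, also a trophoblast factor (3.78, adjusted p = 0.00612), and Notum, while Znrf3 was lower. Without Smad2 knockout replicate 1 the counts were 3 higher and 10 lower. In the double knockout 1 was higher and 9 lower (median -0.99 against -0.05 over all genes), where 10.8% and 12.3% of all genes were. Ccnd1 (-1.70, adjusted p = 0.000246), Lef1 (-2.89, adjusted p = 0.000465) and Tcf7 (-1.16, adjusted p = 0.00186) were lower and Msx2 was higher (2.21, adjusted p = 0.00428). Axin2, named here after its values were seen, was lower in both knockouts, at 11.3 CPM in the Smad2 (-1.73, adjusted p = 0.011) and 10.6 CPM in the double knockout (-1.81, adjusted p = 0.0113). Without either double knockout library 3 were called lower there. In the Smad3 knockout 1 of the 20 was called, Ccnd1 (-1.18, adjusted p = 0.0321). The Ccnd1 call was lost with the compared groups alone and on both TPM scales. It was lost also without either day 0, either Smad3 knockout or either double knockout library. These counts describe the lists and have no test of their own.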

How the data were processed

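RNA-seq libraries of 5 groups, 2 each, were analysed, and 14 ChIP and input samples were left out because the report is on RNA. The authors deposited RSEM expected counts and TPM per gene, per the file headers. The build mm10 and the tools STAR, RSEM, Bowtie2, HOMER and FastQC 0.11.5 are named in the submitters' processing notes; the annotation and strand setting are not given in the sources used here. Of the gene IDs, 50604 matched GENCODE M21 with their version and 53274 without it.

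Expected counts were rounded and tested with edgeR 4.0.16 (quasi-likelihood, TMM, filterByExpr, 1 fit over 5 groups, Benjamini-Hochberg over 19470 genes), with R 4.3.3. A gene was called at an adjusted p under 0.05. The standard error is the log2 fold change divided by the square root of F. Totals of 35733249 to 53672980 limit the precision of genes under 1 CPM, and a count of 0 allows up to 3. The fit was tested on simulated data. Alternatives, 21 in all, were other scalings, filters, DESeq2 1.42.0, a replicate or name series block, fits of only the compared groups, limma 3.58.1 on log2(TPM + 1) and log2(TPM + 0.1) over 14328 genes of mean TPM of at least 1 (8 of the 10 genes), a length and GC offset, and each library left out.

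The 10 genes and the pathway and marker lists were chosen with earlier results of these data known. From each pathway list, up to 3 called genes with the smallest adjusted p and 1 in the other direction were named per comparison, and for likeness the 3 genes with the highest r among genes of at least 5 CPM in their highest group, of which 1 is not reported here.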

Additional observations from a re-analysis of the deposited data

Results flagged for a closer look

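For 3 genes edgeR's quasi-likelihood test called the interaction, the contrast of Smad2 loss with and without Smad3 by the labels. The log2 value was -2.99 for Wnt4 (adjusted p = 0.0179), -2.71 for Wnt5a (adjusted p = 0.0387) and -1.94 for Wnt7b (adjusted p = 0.00772). Against WT, the Smad2 knockout had Wnt4 and Wnt7b called higher. In the double against the Smad3 knockout Wnt7b was called higher, Wnt5a was called lower and Wnt4 was not called. The interaction call held under 16 of 21 alternatives for Wnt4, 11 of 19 for Wnt5a and 18 of 21 for Wnt7b. On log2(TPM + 1) the Wnt7b interaction stood at -0.48 and was not called.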

How the results depend on the processing

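The number of the 10 genes called moved as follows. Smad2 knockout against WT, 3 called: 6 with no filter, 5 on each TPM scale and 5 with the length and GC offset, and 3 to 7 with 1 library left out (7 without Smad2 knockout replicate 1). Smad3 knockout against WT, 1 called: 4 with no filter, 3 by DESeq2, 0 with the compared groups alone (edgeR, 5 at an unadjusted p under 0.05), and 0 to 3 with 1 library left out. Double knockout against WT, 7 called: 3 to 8 with 1 library left out. Smad2 against Smad3 knockout, 2 called: 6 with no filter, 3 on log2(TPM + 1), 3 with the offset, and 1 to 6 with 1 library left out. Double against Smad2 knockout, 4 called: 7 with no filter, 2 with the compared groups alone, 2 on log2(TPM + 1) and 1 on log2(TPM + 0.1) (all higher, where the 4 were lower), 7 with the offset, and 0 to 7 with 1 library left out. Double against Smad3 knockout, 5 called: 8 with no filter, 8 with the compared groups alone, 3 on each TPM scale, and 1 to 8 with 1 library left out. Interaction, 3 called: 7 with no filter, 6 by DESeq2, 0 on log2(TPM + 1), 1 on log2(TPM + 0.1), and 0 to 7 with 1 library left out. The cause was not tested.

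Among the 10 genes and their comparisons of day 4 with day 0 and of knockouts with WT, signs turned only where no call had been made. Under the length and GC offset Wnt4 was -0.30 and Wnt5a -0.026 (day 4 against day 0), Wnt5b -0.23 and Rspo3 0.23 (Smad2 knockout) and Wnt11 -0.10 (Smad3 knockout). Wnt5b in the Smad2 knockout was -0.59 on log2(TPM + 1) and -1.0 on log2(TPM + 0.1). With 1 library left out, values ran from -0.51 to 0.66 for Wnt4 (day 4 against day 0). In the Smad2 knockout they ran from -1.20 to 3.18 for Wnt3a, -0.73 to 1.09 for Wnt5a, -1.94 to 1.07 for Wnt5b and -5.36 to 0.63 for Rspo3. In the Smad3 knockout they ran from -0.47 to 0.24 for Wnt3, -0.21 to 0.93 for Wnt3a and -0.34 to 0.95 for Wnt11, and in the double knockout from -1.01 to 0.23 for Wnt11.

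Same-numbered replicates deviated together among WT and the single knockouts (r = 0.113 to 0.51) but not with the double knockout (-0.18 to -0.035). The numbers of the first 4 groups coincide with the 2 name series, while both double knockout libraries are in the first, and the labels say nothing of what either marks. With the name series as a block no call of the 10 genes was lost. Wnt5b was then called higher at day 4 (2.05, adjusted p = 0.0468) and Wnt8a lower in the Smad2 knockout (-2.35, adjusted p = 0.0354), and the interaction had 4 genes called. With the replicate block the 8 comparisons kept counts of 6, 3, 1, 7, 2, 4, 5 and 3, and Wnt3 lost its call between double and Smad2 knockout (-2.65, adjusted p = 0.0537).

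Over all genes, 5622 rose and 4517 fell between day 0 and day 4, against 6887 and 3306 by library totals and 7098 and 1487 on log2(TPM + 1). In the Smad2 knockout 2993 were higher and 3911 lower, against 2126 and 4808 by library totals, 800 and 6168 on log2(TPM + 1) and 2629 and 2124 with the offset. In the Smad3 knockout the 108 calls became 191 by library totals, 1096 with no filter, 776 by DESeq2, 1069 with the offset, 54 on log2(TPM + 0.1), 0 with the compared groups alone, and 3 to 2709 with 1 library left out. In the double knockout 2105 were higher and 2401 lower, against 2046 and 1021 on log2(TPM + 1).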
